A study of Homo sapiens with 12 samples.

Results

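BON-1 cells sorted from co-culture with CAFs at a ratio of 10:6 were compared with BON-1 cells sorted from co-culture at 10:4, which asks what a larger share of CAFs in the culture added. BON-1 is an established human pancreatic neuroendocrine tumour line, and CAF is the usual abbreviation of cancer-associated fibroblast. Both groups held BON-1 cells and CAFs, no other agent is named, and each group had 3 of the 12 libraries sequenced from polyA RNA. Co-culture at 10:2 and BON-1 alone, also with 3 libraries each, were used for the spread within groups and to place the levels. The genes compared were those that reached 1 FPKM (a read count scaled by gene length and library depth) in at least 3 of the 6 libraries, which kept 12869 of 54261 genes. At the border of that rule, AP4B1-AS1 entered with a third-highest value of 1.001 FPKM and MIR378I stayed out with 0.9998 FPKM, and 299 genes reached the level in exactly 3 libraries.

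Fibroblasts in tumours lay down collagen and fibronectin, and those that turn contractile make smooth muscle actin. Tumour cells in contact with them receive growth factors and matrix signals, and dividing cells condense, hold together and separate their chromosomes with condensin, cohesin and topoisomerase II. Immediate early genes are transcribed within minutes of such signals, without new protein synthesis.

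The 10:6 libraries held 13516898, 15327524 and 14094951 reads on genes, and the 10:4 libraries held 14216450, 12604134 and 13161157. The labels name no separate cultures, so p-values measure the spread between these libraries, which may be technical. How pure the sorted cells were is also unstated. Against their defining markers the libraries matched the label of a neuroendocrine epithelial line. The summed level of 8 neuroendocrine markers was 2869 to 2965 FPKM at 10:6 and 2811 to 2866 FPKM at 10:4, with TPH1 alone under 1 FPKM. The 5 epithelial markers summed to 4104 to 4303 FPKM at 10:6 and 4153 to 4357 FPKM at 10:4. The 4 leukocyte markers summed to 6.81 to 8.02 FPKM at 10:6 and 6.69 to 7.60 FPKM at 10:4. In each group 3 of them averaged under 1 FPKM, and CD3E, a T cell gene, was at 0 in all 6 libraries. The 4 endothelial markers summed to 38.3 to 40.8 FPKM at 10:6 and 39.7 to 41.2 FPKM at 10:4. Their sum was 39.3 to 40.3 FPKM in BON-1 alone. The 14 fibroblast markers summed to 209.0 to 211.9 FPKM at 10:6 and 141.9 to 144.7 FPKM at 10:4, so these groups did not overlap. Of these markers 6 are themselves among the called genes below (COL1A1, COL1A2, COL3A1, ACTA2, TAGLN and SPARC), and they hold most of the sum. The other 8 summed to 13.9 to 14.4 FPKM at 10:6 and 10.6 to 12.5 FPKM at 10:4, also without overlap, and their part in the results was not tested.

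At 10:6, 18 genes rose and 33 fell against 10:4. A gene is called here when the adjusted p of limma, with Benjamini-Hochberg adjustment over the 12869 genes, is under 0.05. Calls made up 0.396% of the genes tested, with 0.14% higher and 0.256% lower. Every count of called list members below stands beside these shares. The lists were chosen with earlier results of these data known, so their counts are description only. Among the 18 rises were fibroblast matrix and contractile genes together with EGR1, BTG2 and CDKN1A. Among the 33 falls were long messages for chromosome, nuclear pore and motor proteins. The ratio of the mean FPKM at 10:6 to that at 10:4 ran from 0.524 to 0.909 among the falls. Among the 16 coding rises it ran from 1.17 to 1.91. The highest, CCDC80, entered the test only through its 10:6 libraries, and the next was THBS2 at 1.69. The rises of SNORD50A and RNA5SP109 rest on 0 to 1 read per library at 10:4, so no ratio is given for them. The median log2 change over all genes was 0.01, with 7035 of the 12869 positive and 5834 negative. The 6 libraries did not overlap between the groups in any of the 51 genes. Over all tested genes this was true of 9.88% in the higher direction and 7.67% in the lower. The calls were made on the same libraries, so the lack of overlap is no separate support for them. Of the 51, 8 rises (COL1A1, COL1A2, COL3A1, SPARC, FN1, ACTA2, EGR1 and BTG2) and 3 falls (RANBP2, KIF5B and HSP90AA1) were called with each of the 6 libraries left out in turn. The others lost their call without at least 1 library, and 5 rises and 6 falls lost it whichever library was left out. The count of calls was 12 without 10:6 replicate 1, 21 without 10:6 replicate 2 and 18 without 10:6 replicate 3. It was 37 without 10:4 replicate 1, 12 without 10:4 replicate 2 and 17 without 10:4 replicate 3. Falls outnumbered rises in the full set, but not without 10:6 replicate 1 (8 rises, 4 falls), 10:4 replicate 2 (9 rises, 3 falls) or 10:4 replicate 3 (10 rises, 7 falls).

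**Figure D1:**
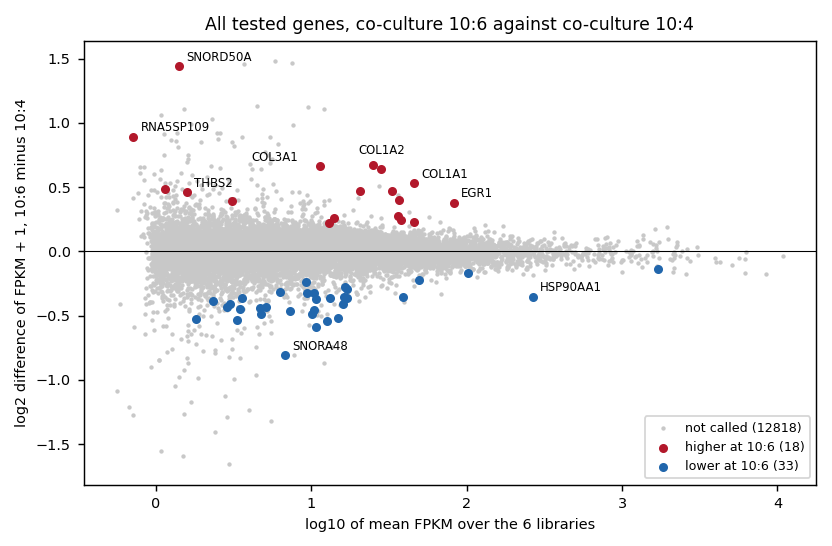
Log2 change of FPKM + 1, 10:6 minus 10:4 (vertical axis), against the mean level over the 6 libraries (horizontal axis, log10), with one point for each of the 12869 genes tested and the called genes coloured. The 18 rises and 33 falls are spread over the range of levels, and SNORD50A, on 2 to 4 reads at 10:6, lies farthest from 0 among them at 1.44.

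Genes of fibroblast matrix made up the largest group of rises. COL1A2, a chain of type I collagen (chromosome 7, 94394895 to 94431227 in GRCh38.p14), had 30.8, 31.6 and 30.0 FPKM at 10:6, against 18.6, 19.0 and 19.3 FPKM at 10:4. All 10:6 libraries lay above all 10:4 libraries, and the log2 change was 0.67 ± 0.0674 (SE; limma adjusted p = 0.00137). The other type I chain, COL1A1 (chromosome 17, 50184101 to 50201631), had 53.5, 55.0 and 54.8 FPKM at 10:6, against 37.8, 36.0 and 38.5 FPKM at 10:4. Its groups were separate as well, with a log2 change of 0.53 ± 0.0343 (limma adjusted p = 4.46e-05). COL3A1, the type III chain that joins type I fibrils, had 13.8, 14.1 and 14.6 FPKM at 10:6 and 8.32, 8.96 and 8.50 FPKM at 10:4. Its log2 change was 0.66 ± 0.0646, and the lowest 10:6 library was above the highest 10:4 library (limma adjusted p = 0.00136). COL5A1, a minor fibril chain, had 3.44, 3.69 and 3.74 FPKM at 10:6 and 2.39, 2.40 and 2.80 FPKM at 10:4. The groups did not overlap (log2 change 0.39, limma adjusted p = 0.0458).

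Of 8 tested members of the list of fibrillar collagens and collagen VI, these 4 rose and 0 fell. Over all genes tested, 0.14% rose and 0.256% fell. All 8 had positive log2 changes, and the median was 0.38 beside 0.01 over all genes. Among members not called, COL5A2, COL6A2 and COL6A3 had every 10:6 library above every 10:4 library, as did 9.88% of all genes tested. COL5A2 averaged 2.20 ± 0.125 FPKM at 10:6 and 1.49 ± 0.0322 FPKM at 10:4 (SD, n = 3 each; limma adjusted p = 0.092). COL6A3, a microfibril chain, averaged 4.94 ± 0.103 FPKM at 10:6 and 3.69 ± 0.288 FPKM at 10:4 (limma adjusted p = 0.106).

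SPARC, a collagen-binding matricellular glycoprotein, had 34.0, 34.4 and 35.4 FPKM at 10:6, against 20.5, 23.5 and 21.5 FPKM at 10:4, so the groups were separate. Its log2 change was 0.64 ± 0.0592 (limma adjusted p = 0.00115). FN1, fibronectin, had 42.6, 42.7 and 40.6 FPKM at 10:6 and 29.9, 31.4 and 33.7 FPKM at 10:4. Again no library crossed over, with a log2 change of 0.40 ± 0.0441 (limma adjusted p = 0.00263). THBS2, thrombospondin-2, averaged 1.99 ± 0.128 FPKM at 10:6 and 1.18 ± 0.198 FPKM at 10:4 (limma adjusted p = 0.0495). These 3 were the calls among 13 matricellular and surface fibroblast markers, with 0 falls and a list median of 0.07. PDGFRA, the receptor that many fibroblasts carry, averaged 3.46 ± 0.218 FPKM at 10:6 and 3.47 ± 0.422 FPKM at 10:4, and BGN, the proteoglycan biglycan, averaged 193.1 ± 3.35 FPKM at 10:6 and 194.7 ± 11.0 FPKM at 10:4. THY1, a surface glycoprotein, averaged 2.66 ± 0.0662 FPKM at 10:6 and 2.13 ± 0.177 FPKM at 10:4 (limma adjusted p = 0.227). The defining fibroblast genes DCN, LUM, POSTN and FAP averaged under 1 FPKM in both groups. CCDC80, a secreted matrix protein, averaged 1.51 ± 0.0782 FPKM at 10:6 and 0.792 ± 0.152 FPKM at 10:4 (limma adjusted p = 0.037). It entered the test only through its 10:6 libraries, so it had to differ.

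Of the contractile genes, ACTA2 and TAGLN rose. ACTA2, smooth muscle actin, had 37.9, 38.3 and 39.3 FPKM at 10:6, against 28.1, 26.9 and 27.8 FPKM at 10:4, with no overlap. The log2 change was 0.47 ± 0.0538 (limma adjusted p = 0.00293). TAGLN, the actin-binding protein transgelin, had 24.7, 24.6 and 22.7 FPKM at 10:6 and 18.1, 17.9 and 15.4 FPKM at 10:4, again separate (log2 change 0.47 ± 0.0754, limma adjusted p = 0.0298). Of 13 contractile genes 2 rose and 0 fell, with a median of 0.08. MYL9, a myosin light chain, averaged 7.93 ± 0.357 FPKM at 10:6 and 6.23 ± 0.504 FPKM at 10:4 without a call (limma adjusted p = 0.0966). ACTA2 overlaps ACTA2-AS1 and FAS in the annotation, TAGLN overlaps PCSK7 and FN1 overlaps ATIC. FAS, below the filter, averaged 0.186 FPKM at 10:6 and 0.205 FPKM at 10:4. PCSK7 averaged 9.53 FPKM at 10:6 and 9.64 FPKM at 10:4, and ATIC 145.9 FPKM at 10:6 and 145.6 FPKM at 10:4, without a call. The part of such partners in the rises was not tested. Whether counting used strand is not given, so their reads cannot be told apart. In libraries of sorted cells, a change in the number of cells of a type and a change in RNA per cell cannot be told apart either.

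Across the 4 cultures, most of these genes were ordered by the share of CAFs. COL1A2 averaged 4.07 FPKM in BON-1 alone, 9.01 FPKM at 10:2, 18.9 FPKM at 10:4 and 30.8 FPKM at 10:6. ACTA2 averaged 5.99 FPKM in BON-1 alone, 11.0 FPKM at 10:2, 27.6 FPKM at 10:4 and 38.5 FPKM at 10:6. FN1 started from a higher level, with 21.7 FPKM in BON-1 alone, 25.1 FPKM at 10:2, 31.6 FPKM at 10:4 and 42.0 FPKM at 10:6. The mean rose at each step in 12 of the 18 called rises, and 10:6 was the highest of the 4 means in all 18. The rises were chosen for a higher level at 10:6 than at 10:4, so that step was fixed in advance. The 8 fibroblast markers that were not called summed to 4.34 to 4.90 FPKM in BON-1 alone, 6.24 to 7.28 FPKM at 10:2, 10.6 to 12.5 FPKM at 10:4 and 13.9 to 14.4 FPKM at 10:6.

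**Figure D2:**
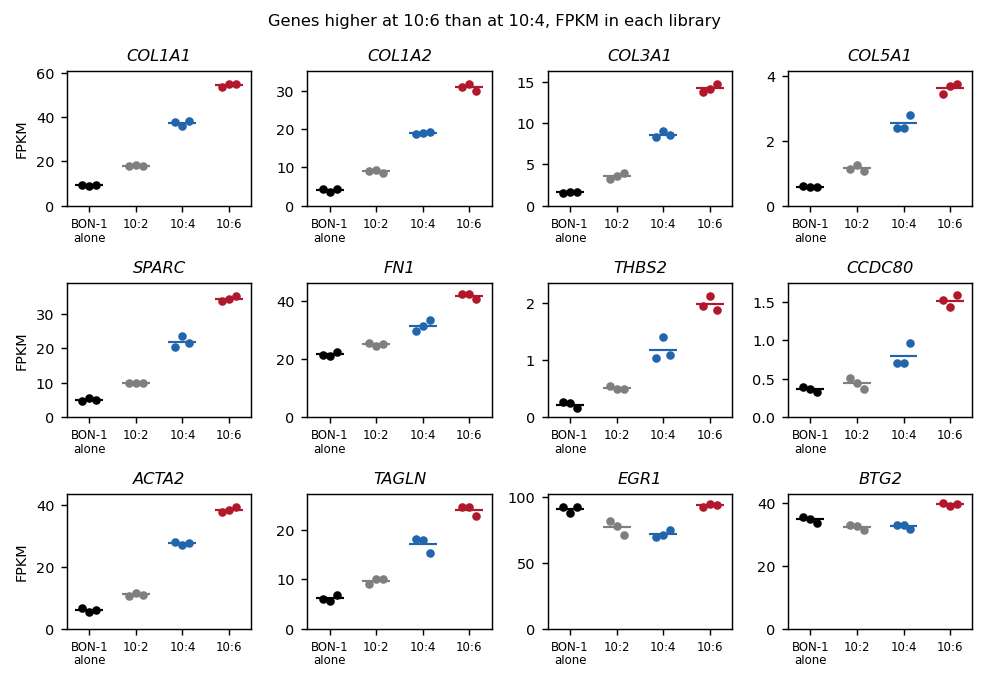
FPKM in each of the 12 libraries (points) and group means (lines) for genes that rose at 10:6 against 10:4, with cultures ordered from BON-1 alone to 10:6 on the horizontal axis. COL1A2 climbs from a mean of 4.07 FPKM in BON-1 alone to 30.8 FPKM at 10:6, while EGR1 is lowest at 10:4 with a mean of 72.0 FPKM.

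EGR1, an immediate early zinc finger transcription factor, did not take that order. It had 92.4, 95.2 and 94.4 FPKM at 10:6, against 69.8, 71.5 and 74.8 FPKM at 10:4, and the groups were far apart. The log2 change was 0.38 ± 0.0449 (limma adjusted p = 0.00347), and the call held with each library left out. The mean was 91.1 FPKM in BON-1 alone, 77.1 FPKM at 10:2, 72.0 FPKM at 10:4 and 94.0 FPKM at 10:6, so 10:6 lay next to BON-1 alone. Of the 18 called rises, 12 have a promoter in the RefSeq table. TAGLN, COL1A1, COL1A2 and COL3A1 are among those that do not and were not searched. The promoter of EGR1 is shown because, of the 12 promoters, it alone holds a CArG box, the motif bound by serum response factor. The 250 bases before its start (GRCh38.p14, chr5:138465229-138465478, plus strand) are printed 5′ to 3′ with the 2 matches in capitals, which begin 105 and 83 bases before the start.
EGR1: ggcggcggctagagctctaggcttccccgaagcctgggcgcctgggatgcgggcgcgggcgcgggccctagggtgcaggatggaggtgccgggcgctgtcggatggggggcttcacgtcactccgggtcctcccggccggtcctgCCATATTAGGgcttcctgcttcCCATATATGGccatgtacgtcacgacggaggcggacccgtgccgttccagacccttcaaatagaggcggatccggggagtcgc
A CArG box was present in 1.14% of 27305 promoters of the same length, and 0.033% held 2 or more. A match of letters is a description of the sequence and shows no binding.

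BTG2, an antiproliferative gene of both the immediate early and the p53 response, had 39.9, 38.9 and 39.7 FPKM at 10:6, against 32.8, 33.1 and 31.5 FPKM at 10:4. The groups were separate, with a log2 change of 0.27 ± 0.0343 (limma adjusted p = 0.00501). These were the 2 calls among 28 tested immediate early genes, of which 25 had positive changes, with a median of 0.07 and 0 falls. Over all 12869 tested genes, 7035 had positive changes. FOS, a partner in the AP-1 factor, averaged 194.1 ± 2.55 FPKM at 10:6 and 188.2 ± 5.70 FPKM at 10:4 (limma adjusted p = 0.503). ZFP36, which speeds mRNA decay, averaged 53.7 ± 1.12 FPKM at 10:6 and 48.3 ± 0.647 FPKM at 10:4 (limma adjusted p = 0.111). CDKN1A, the p21 inhibitor of cyclin-dependent kinases, had 50.4, 47.1 and 52.0 FPKM at 10:6 and 41.2, 43.6 and 42.7 FPKM at 10:4. It was separate between groups (log2 change 0.23 ± 0.0408, limma adjusted p = 0.0429), and with BTG2 made 2 rises and 0 falls among 21 p53 targets, whose median was 0.04. MDM2, the ligase that p53 induces, averaged 4.61 ± 0.536 FPKM at 10:6 and 4.71 ± 0.454 FPKM at 10:4.

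Another 3 coding genes rose by a little. BHLHE40, a basic helix-loop-helix repressor, averaged 15.3 ± 0.490 FPKM at 10:6 and 12.6 ± 0.446 FPKM at 10:4 (limma adjusted p = 0.0394). RBM3, an RNA-binding protein induced by cold, averaged 40.8 ± 0.925 FPKM at 10:6 and 34.3 ± 0.816 FPKM at 10:4 (limma adjusted p = 0.0458). TP53BP2, a p53-binding protein, averaged 14.1 ± 0.250 FPKM at 10:6 and 11.97 ± 0.124 FPKM at 10:4 (limma adjusted p = 0.0349). All 3 lost their call whichever of the 6 libraries was left out. SNORD50A and RNA5SP109, the other calls, rest on 2 to 4 and 2 reads per library at 10:6, against 0 to 1 read at 10:4. Both entered only through their 10:6 libraries, and SNORD50A lies within its host SNHG5, which averaged 55.6 ± 2.59 FPKM at 10:6 and 50.6 ± 2.78 FPKM at 10:4 without a call.

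On the log2(FPKM + 1) scale, the largest fall among coding genes was in RANBP2, the large nucleoporin of the cytoplasmic filaments of the nuclear pore. It had 7.93, 8.56 and 8.63 FPKM at 10:6, against 11.7, 13.9 and 13.9 FPKM at 10:4. Every 10:6 library was below every 10:4 library, and the log2 change was -0.59 ± 0.0652 (limma adjusted p = 0.00263). RANBP2 has near-copies, the RGPD genes, and these had group means of at most 0.16 FPKM. The annotated span of RANBP2 overlaps 18 genes, whose reads cannot be told apart here either. Of these, CCDC138 averaged 0.349 FPKM at 10:6 and 0.419 FPKM at 10:4, and EDAR 0.0546 FPKM at 10:6 and 0.0834 FPKM at 10:4. By the ratio of means RIF1 (0.564) and CENPF (0.617) fell further than RANBP2 (0.636). TPR, the nuclear basket protein, averaged 2.29 ± 0.195 FPKM at 10:6 and 3.44 ± 0.102 FPKM at 10:4 (limma adjusted p = 0.0458). CSE1L, the exportin that returns importin alpha to the cytoplasm, had 33.9, 33.6 and 35.0 FPKM at 10:6 and 42.0, 45.8 and 44.4 FPKM at 10:4. It was separate between groups, with a log2 change of -0.36 ± 0.0501 (limma adjusted p = 0.0136). Of 41 nuclear pore and transport genes 3 fell and 0 rose, and the median was 0.00. NUP98, a pore protein with an FG repeat, averaged 23.3 ± 0.816 FPKM at 10:6 and 21.8 ± 0.388 FPKM at 10:4 (limma adjusted p = 0.333).

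Of 39 mitotic genes tested, 6 fell and 0 rose, beside 0.256% lower and 0.14% higher over all genes tested. CENPF, an outer kinetochore protein, had 2.62, 2.57 and 2.42 FPKM at 10:6, against 3.96, 4.25 and 4.14 FPKM at 10:4. The libraries were far apart, with a log2 change of -0.53 ± 0.0788 (limma adjusted p = 0.0179). SMC4, a condensin ATPase, had 7.26, 8.71 and 8.70 FPKM at 10:6 and 10.4, 13.2 and 12.4 FPKM at 10:4. Both groups held a low first library, and they did not overlap (log2 change -0.49 ± 0.0831, limma adjusted p = 0.0349). TOP2A, topoisomerase II alpha, had 14.2, 15.5 and 14.5 FPKM at 10:6 and 18.2, 20.8 and 18.9 FPKM at 10:4. Its log2 change was -0.37 ± 0.0634 with separate groups (limma adjusted p = 0.0349). ECT2, the exchange factor that starts cytokinesis, averaged 13.7 ± 0.735 FPKM at 10:6 and 18.5 ± 1.52 FPKM at 10:4 (limma adjusted p = 0.0267). ANLN, anillin of the contractile ring, averaged 9.25 ± 0.607 FPKM at 10:6 and 12.3 ± 1.07 FPKM at 10:4 (limma adjusted p = 0.0344). NCAPG, a condensin subunit, averaged 9.17 ± 0.540 FPKM at 10:6 and 11.7 ± 0.600 FPKM at 10:4 (limma adjusted p = 0.0349). The number of mitotic falls ran from 0 to 6 with single libraries left out, and was 0 without 10:6 replicate 1, 10:4 replicate 2 or 10:4 replicate 3, and 1 without 10:6 replicate 2 or 10:6 replicate 3.

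Other mitotic genes were not called, some with changes near 0. MKI67, the Ki-67 antigen, averaged 15.9 ± 0.139 FPKM at 10:6 and 15.3 ± 1.91 FPKM at 10:4 (log2 change 0.06, limma adjusted p = 0.792). CCNB1, cyclin B1, averaged 132.3 ± 4.24 FPKM at 10:6 and 133.1 ± 3.06 FPKM at 10:4 (limma adjusted p = 0.928). AURKA, the centrosomal kinase Aurora A, averaged 65.3 ± 2.26 FPKM at 10:6 and 64.7 ± 2.14 FPKM at 10:4 (limma adjusted p = 0.922). The median over the 39 genes was -0.10, with 26 below 0, beside 5834 below 0 among all 12869 genes tested. ASPM, a spindle pole protein, averaged 0.965 ± 0.123 FPKM at 10:6 and 1.64 ± 0.133 FPKM at 10:4 and missed the threshold (limma adjusted p = 0.054).

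The mitotic falls lay among messages of low GC content. The 6 called genes had 37.3% to 40.8% GC and lengths of 4753 to 10296 bases. Of the 39 members, 19 lay below 41.6% GC, the upper limit of the lowest of 5 equal groups of tested genes by GC content. Of these 19, 18 had a negative change with a median of -0.33 and 6 were called. The 20 members above it had a median of 0.01 and 0 calls. The median over all genes of that lowest group was -0.03, and that difference was not tested.

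The promoters of 3 mitotic falls are shown because they hold 2 or more copies of CCAAT, read on either strand (ATTGG on the other), the box bound by NF-Y. Each is the 250 bases before the start in GRCh38.p14 from the RefSeq table, printed 5′ to 3′ on the gene's strand with the motif in capitals: TOP2A at chr17:40417897-40418146 (minus strand), CENPF at chr1:214602945-214603194 (plus strand) and ECT2 at chr3:172750476-172750725 (plus strand).
TOP2A: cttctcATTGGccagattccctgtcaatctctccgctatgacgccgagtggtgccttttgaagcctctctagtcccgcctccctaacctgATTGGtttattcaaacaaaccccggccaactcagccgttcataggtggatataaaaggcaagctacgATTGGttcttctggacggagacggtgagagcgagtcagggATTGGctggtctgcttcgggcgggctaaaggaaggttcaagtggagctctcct
CENPF: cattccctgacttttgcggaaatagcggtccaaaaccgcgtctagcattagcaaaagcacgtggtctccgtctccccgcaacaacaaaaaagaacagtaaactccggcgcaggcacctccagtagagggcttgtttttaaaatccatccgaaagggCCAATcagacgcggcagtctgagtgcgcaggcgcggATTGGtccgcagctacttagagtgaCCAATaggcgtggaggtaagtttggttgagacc
ECT2: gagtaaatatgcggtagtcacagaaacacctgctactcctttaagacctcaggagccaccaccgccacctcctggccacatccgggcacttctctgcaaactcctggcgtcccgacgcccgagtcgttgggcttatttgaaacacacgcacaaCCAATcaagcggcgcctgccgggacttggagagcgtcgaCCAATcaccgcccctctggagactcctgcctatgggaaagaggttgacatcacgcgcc
TOP2A held 4 copies, CENPF 3 and ECT2 2. At least 1 copy was in 10 of the 23 called falls with a promoter in the table (43.5%), in 3 of the 12 called rises (25%) and in 33.0% of all 27305 promoters. Of the falls, 17.4% held 2 or more, against 10.0% of all promoters.

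Of the cohesin subunits, SMC3 and STAG2 fell. SMC3, the cohesin ATPase, had 8.33, 8.47 and 9.13 FPKM at 10:6, against 11.7, 13.5 and 11.5 FPKM at 10:4, and the groups were separate. Its log2 change was -0.45 ± 0.0720 (limma adjusted p = 0.0285). STAG2, a cohesin subunit, had 3.60, 4.14 and 3.67 FPKM at 10:6 and 5.40, 6.27 and 5.52 FPKM at 10:4, also separate (log2 change -0.49 ± 0.0774, limma adjusted p = 0.0285). Other subunits were looked at after these values were seen. RAD21, the cohesin kleisin, averaged 31.4 ± 1.12 FPKM at 10:6 and 32.8 ± 1.10 FPKM at 10:4 (limma adjusted p = 0.584), and NCAPD2 of condensin averaged 68.6 ± 2.13 FPKM at 10:6 and 67.5 ± 4.43 FPKM at 10:4. STAG1, the alternative to STAG2 in cohesin, averaged 1.74 ± 0.274 FPKM at 10:6 and 2.45 ± 0.280 FPKM at 10:4 (log2 change -0.33, limma adjusted p = 0.167). SMC2, the partner of SMC4 in condensin, averaged 3.35 ± 0.151 FPKM at 10:6 and 4.71 ± 0.520 FPKM at 10:4 (log2 change -0.39, limma adjusted p = 0.0733). Neither was called. Every 10:6 library was below every 10:4 library in both, which was true of 7.67% of all genes tested. The core subunits SMC1A of cohesin and NCAPH of condensin had log2 changes of 0.08 and 0.05 (limma adjusted p = 0.504 and 0.614). RIF1, which controls replication timing and break repair, averaged 1.31 ± 0.162 FPKM at 10:6 and 2.32 ± 0.233 FPKM at 10:4 (limma adjusted p = 0.0306).

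KIF5B, the conventional kinesin heavy chain, had 10.7, 12.8 and 12.4 FPKM at 10:6, against 16.7, 18.03 and 17.9 FPKM at 10:4. Its groups were far apart, with a log2 change of -0.52 ± 0.0625 (limma adjusted p = 0.00367), and the call held with each library left out. KIF21A, a kinesin that restrains microtubule growth, averaged 3.01 ± 0.246 FPKM at 10:6 and 4.17 ± 0.144 FPKM at 10:4 (limma adjusted p = 0.035). These were the 2 falls among 22 kinesin and dynein genes, which had 0 rises and a median of 0.04. PCM1, a centriolar satellite protein, and SMC3 were the 2 falls among 20 tested members of the list of Golgi and centrosome coiled-coil proteins (0 rises, median -0.09). SMC3 was on that list although it is a cohesin subunit. PCM1 averaged 1.89 ± 0.0536 FPKM at 10:6 and 2.79 ± 0.198 FPKM at 10:4 (limma adjusted p = 0.0495). KTN1, the kinesin receptor kinectin, averaged 2.80 ± 0.236 FPKM at 10:6 and 4.19 ± 0.144 FPKM at 10:4 (limma adjusted p = 0.0106).

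HSP90AA1, the inducible cytosolic HSP90 chaperone, had 221.3, 241.8 and 236.3 FPKM at 10:6, against 296.2, 306.6 and 291.1 FPKM at 10:4. All 3 libraries at 10:6 were lower, with a log2 change of -0.35 ± 0.0405 (limma adjusted p = 0.00293), and the call held with each library left out. Its constitutive partner HSP90AB1 averaged 611.1 ± 9.44 FPKM at 10:6 and 602.0 ± 4.43 FPKM at 10:4 (limma adjusted p = 0.715). CCT8, a chaperonin subunit, averaged 95.5 ± 1.79 FPKM at 10:6 and 107.7 ± 2.77 FPKM at 10:4 (limma adjusted p = 0.0344). Of 31 heat shock and chaperonin genes, these 2 fell and 0 rose, and the median was -0.02.

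EIF5B, which joins the ribosomal subunits, averaged 14.1 ± 0.771 FPKM at 10:6 and 18.3 ± 0.553 FPKM at 10:4 (limma adjusted p = 0.0139). ABCE1, which splits ribosomes for recycling, averaged 11.5 ± 0.784 FPKM at 10:6 and 14.99 ± 0.444 FPKM at 10:4 (limma adjusted p = 0.0345). NMD3, the export adaptor of the large subunit, averaged 15.1 ± 0.825 FPKM at 10:6 and 18.7 ± 0.511 FPKM at 10:4 (limma adjusted p = 0.042). SKIV2L2, the helicase of the nuclear exosome, and TTC37, a subunit of the cytoplasmic Ski complex, fell by 0.33 and 0.43 on the log2 scale (limma adjusted p = 0.0349 and 0.0413). CEBPZ, a ribosome assembly factor, averaged 6.00 ± 0.105 FPKM at 10:6 and 8.66 ± 0.607 FPKM at 10:4 (limma adjusted p = 0.0178). APOB, the lipoprotein core protein, averaged 2.43 ± 0.152 FPKM at 10:6 and 3.56 ± 0.317 FPKM at 10:4 (limma adjusted p = 0.0383). SEMA3A, a secreted axon guidance ligand, averaged 5.52 ± 0.288 FPKM at 10:6 and 7.12 ± 0.143 FPKM at 10:4 (limma adjusted p = 0.0344).

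The remaining falls were in SLK, MAP4K3, VPS28, YAE1D1, HBA2, SNORA48 and MTATP6P1. SLK and MAP4K3 are kinases, and VPS28 is a subunit of the ESCRT-I sorting complex. HBA2 shares near-identical sequence with HBA1, so its value is uncertain: HBA2 averaged 10.1 ± 1.901 FPKM at 10:6 and 15.04 ± 0.737 FPKM at 10:4 (limma adjusted p = 0.0495), and HBA1 averaged 6.68 ± 0.617 FPKM at 10:6 and 6.32 ± 0.396 FPKM at 10:4. SNORA48 rests on 8 to 10 reads per library at 10:6 and 15 to 17 at 10:4, within EIF4A1, which was not called (log2 change -0.04). MTATP6P1 is a nuclear copy of the mitochondrial ATP6 gene and is uncertain for that reason: it averaged 1617 ± 37.7 FPKM at 10:6 and 1779 ± 36.8 FPKM at 10:4 (limma adjusted p = 0.0495), while ATP6 averaged 5856 ± 421 FPKM at 10:6 and 6565 ± 145 FPKM at 10:4 (limma adjusted p = 0.19).

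Levels of the falls peaked at 10:4. In 32 of the 33, the mean at 10:4 was above both 10:2 and 10:6, and in 30 it was the highest of the 4 means. The falls were chosen for a higher level at 10:4 than at 10:6, so part of this pattern was fixed in advance. Its share over all tested genes was not counted. RANBP2 averaged 4.71 FPKM in BON-1 alone, 8.87 FPKM at 10:2, 13.2 FPKM at 10:4 and 8.37 FPKM at 10:6. HSP90AA1 averaged 172.8 FPKM in BON-1 alone, 252.6 FPKM at 10:2, 297.9 FPKM at 10:4 and 233.2 FPKM at 10:6. The 10:6 mean was above BON-1 alone in 29 falls and below 10:2 in 22. Within the groups, 10:4 replicate 2 was the highest 10:4 library in 22 of the 33 and 10:4 replicate 1 the lowest in 25, and 10:6 replicate 1 was the lowest 10:6 library in 21. Their part in these calls was not tested beyond the counts given for each left-out library.

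**Figure D3:**
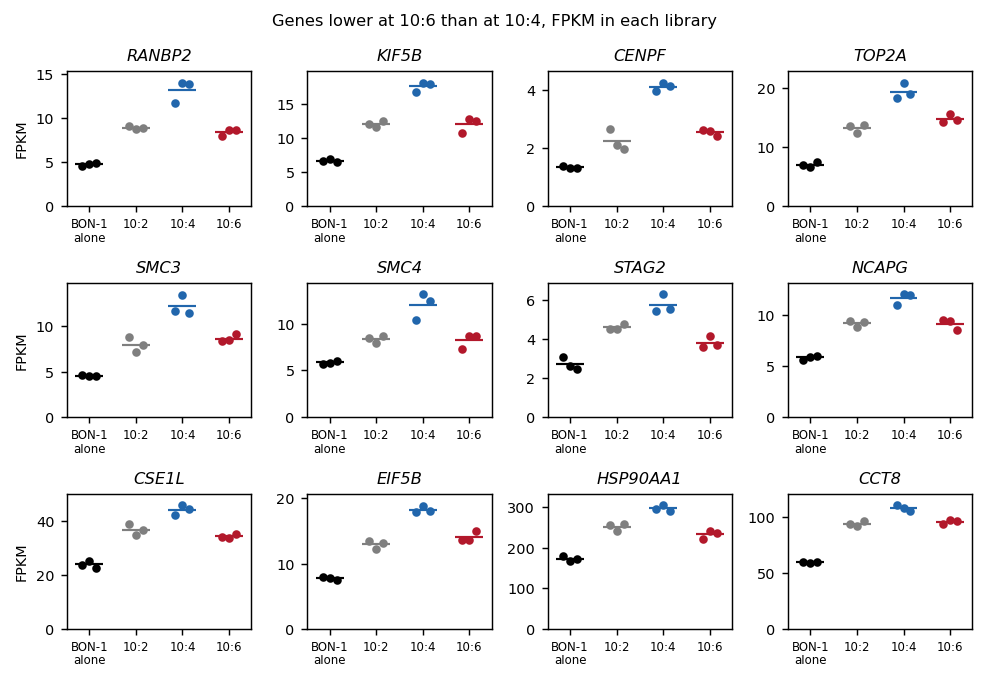
FPKM in each of the 12 libraries (points) and group means (lines) for genes that fell at 10:6 against 10:4, with cultures ordered from BON-1 alone to 10:6 on the horizontal axis. RANBP2 reaches its highest mean, 13.2 FPKM, at 10:4 and lies at 8.37 FPKM at 10:6.

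The falls had low GC content although the rank correlation of fold changes with it was near 0. Over 12087 genes with both values (93.9% of those tested), Spearman's rho across genes, which share their libraries and are not replicates, was 0.00684 between GC content and log2 change and 0.105 between length and log2 change. The median GC content was 39.5% over the 33 falls, 51.5% over the 17 rises with a value and 49.6% over all 12087 genes. Of the falls, 28 lay below 45% GC, a range that held 33.8% of all genes. Of 5 equal groups by GC content, the lowest held 24 falls (0.993% of its genes) and 0 rises, with a median change of -0.03, and the others, in rising order of GC content, had medians of 0.04, 0.04, 0.01 and -0.02. The lower tail differed more. The 5th percentile of the log2 change was -0.29 in the lowest group and -0.13, -0.12, -0.14 and -0.18 in the others, in the same order. With the trends on length and GC content removed, 29 of the 33 falls and 15 of the 17 rises were still called. HBA2, SEMA3A, TPR and MTATP6P1 were the falls that lost the call, and RBM3 and TP53BP2 the rises.

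**Figure D4:**
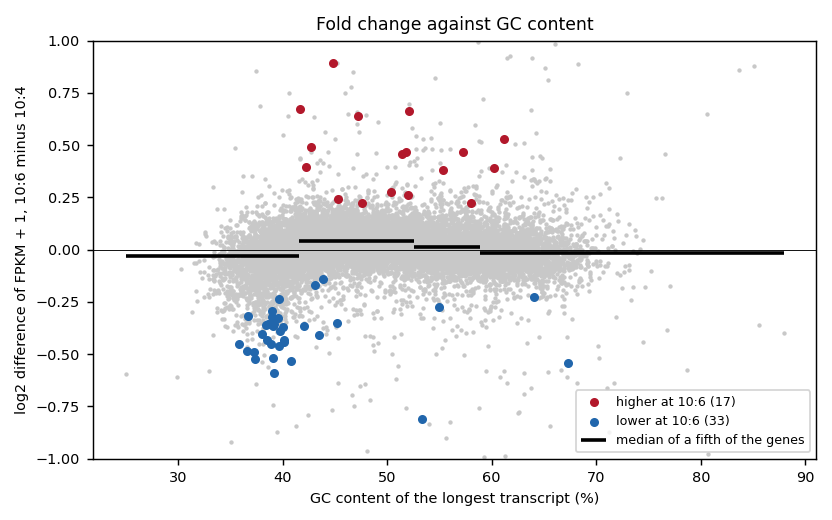
Log2 change, 10:6 minus 10:4 (vertical axis), against GC content of the transcript in percent (horizontal axis) for the 12087 genes with a value, with called genes coloured. Black lines mark the medians of 5 equal groups by GC content. The 33 falls have a median of 39.5% GC and the 17 rises of 51.5%, and 18 genes beyond 1 log2 unit lie outside the axis.

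Lists of genes that BON-1 cells carry as a neuroendocrine and epithelial tumour line held 0 calls. Of all genes tested 0.396% were called, so 0 calls in lists this short do not show that their genes were unchanged. CHGA, the granule protein chromogranin A, averaged 975.1 ± 39.2 FPKM at 10:6 and 1021 ± 20.5 FPKM at 10:4 (limma adjusted p = 0.386). SCG2, secretogranin II, averaged 1401 ± 7.84 FPKM at 10:6 and 1308 ± 48.3 FPKM at 10:4 (limma adjusted p = 0.191). EPCAM, the epithelial adhesion molecule, averaged 368.4 ± 9.47 FPKM at 10:6 and 367.7 ± 9.70 FPKM at 10:4 (limma adjusted p = 0.98). The 22 neuroendocrine genes had a median of 0.04 and the 21 epithelial genes a median of 0.01. CDH1, E-cadherin, averaged 86.0 ± 0.436 FPKM at 10:6 and 79.3 ± 3.04 FPKM at 10:4 (limma adjusted p = 0.155).

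Beside that share of 0.396% over all genes tested, other lists on signalling between fibroblasts and tumour cells had 0 calls too. They were the TGF-beta response (17 tested, median 0.01), the IGF axis (11, median 0.11), fibroblast cytokines and growth factors (8, median 0.04), basement membrane (13, median 0.10), collagen processing and matrix proteases (21, median 0.04), mesenchymal transition factors (2, median -0.05), and leukocyte and endothelial markers (5, median 0.06). TGFBI, a matrix protein induced by TGF-beta, averaged 70.4 ± 1.76 FPKM at 10:6 and 63.4 ± 1.83 FPKM at 10:4, just short of a call (limma adjusted p = 0.0733). IGFBP7, a secreted binding protein, averaged 14.9 ± 1.46 FPKM at 10:6 and 11.0 ± 1.19 FPKM at 10:4 (limma adjusted p = 0.181). The YAP and TEAD targets had 15 members and 0 calls (median 0.11), with FSTL1, a secreted glycoprotein also made by fibroblasts, at 5.10 ± 0.0683 FPKM at 10:6 and 3.14 ± 0.447 FPKM at 10:4 (limma adjusted p = 0.054).

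Of the stress and metabolism lists with 0 calls, the unfolded protein and ATF4 response came nearest a call. HSPA5, the endoplasmic reticulum chaperone BiP, had 207.7, 199.97 and 204.4 FPKM at 10:6, against 186.1, 186.9 and 188.5 FPKM at 10:4. Its groups were separate, as were those of 9.88% of all genes tested in that direction, but it was not called (log2 change 0.12, limma adjusted p = 0.0586). ASNS, asparagine synthetase, averaged 143.7 ± 1.91 FPKM at 10:6 and 129.0 ± 5.01 FPKM at 10:4 (limma adjusted p = 0.0617). Of that list's 31 genes, 26 had positive changes, with a median of 0.06, beside 7035 positive among all 12869 genes tested. The counts of 0 below stand beside 0.396% called over all genes tested, so they do not show that these lists were unchanged. There were 0 calls among 22 interferon-stimulated genes (median 0.09), 32 hypoxia and glycolysis genes (median -0.01), 30 sterol synthesis genes (median 0.01), 38 nuclear oxidative phosphorylation genes (median -0.01) and 41 ribosomal protein genes (median -0.01). There were also 0 calls among 35 DNA replication genes (median 0.00), 40 splicing factors (median 0.00), 34 chromatin genes (median 0.05), 26 ubiquitin genes (median -0.03), 20 aminoacyl-tRNA synthetases (median 0.04) and 10 histone genes (median -0.03).

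**Figure D5:**
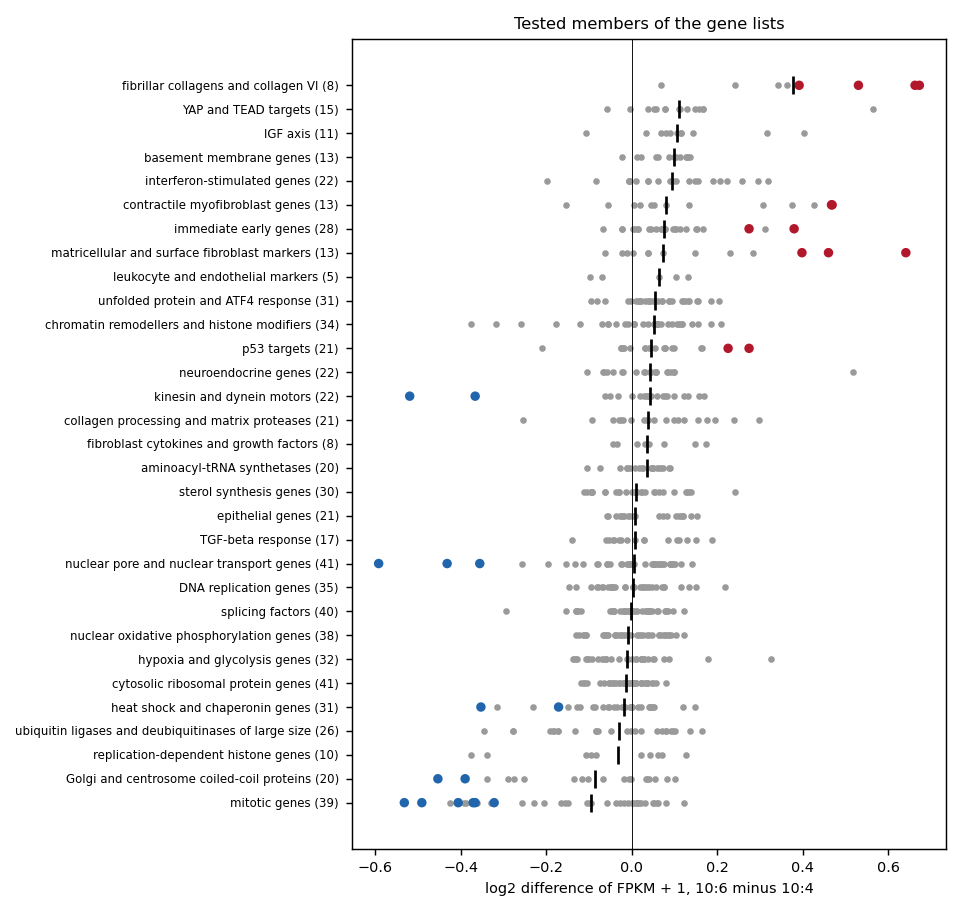
Log2 changes, 10:6 minus 10:4 (horizontal axis), of the tested members of each gene list (rows), with called members marked. The collagen list lies highest, with a median of 0.38 and 4 rises, and the mitotic list has the lowest median, -0.10, with 6 falls. Short bars mark the list medians.

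The calls also depended on the test. With limma-voom on the reads recovered from the FPKM values, 96 genes were higher and 178 lower (0.746% and 1.38% of those tested), and 48 of the 51 calls were among them. SNORA48, SNORD50A and RNA5SP109 were the 3 that were not. In a fit of the 6 libraries alone, 8 genes rose and 10 fell, and 12 of the 51 were among these 18.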

How the data were processed

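Sequencing of polyA RNA from sorted BON-1 cells was deposited by the authors as FPKM values, in 1 table of 12 libraries and 54261 genes. Per the submitters' processing notes, HISAT2, featureCounts and hg38 were used; no source used here gives versions or strand settings. The code in each sample's title tied its column to it. Whole reads were recovered from the FPKM values (99.97% of 267349 nonzero values within 1e-07 of a read), giving 11703624 to 21882537 reads per library; no pair within a group agreed within counting noise.

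Values of log2(FPKM + 1) entered limma 3.58.1 under R 4.3.3. The model took a mean for each of 4 groups from all 12 libraries, with a variance trend and Benjamini-Hochberg adjustment at 0.05. Fold changes on this scale understate those of low genes. The method was checked on simulated data. The genes compared and the 33 gene lists were chosen with earlier results of these data known, so lists are described by counts and medians. The list of mitochondrially encoded genes used symbols with an MT- prefix, which the table does not use, and gave no members; ATP6 was looked up apart from it. Named genes were protein-coding calls with a mean of at least 5 FPKM in the higher group and no overlap (12 largest each way), list members with the smallest p, label checks and other called genes; fewer were named than the rule allows. Same-numbered libraries of the groups were not treated as pairs. Alternatives changed the pseudocount, filter, scaling, variance model, libraries in the fit, replicate block, length and GC trends and test, and left out each library. Positions and promoters came from RefSeq (GRCh38.p14), GC content from the longest GENCODE transcript. Tables and plots used pandas 2.3.3, matplotlib 3.10.9 and numpy 2.4.6 under Python 3.11.15.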

Additional observations from a re-analysis of the deposited data

How the results depend on the processing

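The full fit called 51 genes, 18 higher and 33 lower, with 6 mitotic falls. No filter on low values gave 17 calls (9 higher, 8 lower, 0 mitotic falls), and the 6 libraries alone gave 18 (8, 10 and 1). Quantile normalization gave 86 calls with 59 lower, removal of length and GC trends 89 with 64 lower, protein-coding genes alone 119 (39 higher, 80 lower), and limma-voom on recovered reads 274 (96, 178 and 10 mitotic falls). Leaving out single libraries gave 12 to 37 calls, 8 to 12 higher, 3 to 25 lower and 0 to 6 mitotic falls; each library except 10:4 replicate 1 moved the total by over 1.5 times. The excess of falls turned without 10:6 replicate 1, 10:4 replicate 2 or 10:4 replicate 3 and with no filter. The cause was not tested. None of the 51 called genes changed direction under any alternative run that kept them. Their libraries did not overlap between the groups. A left-out library, another pseudocount or another filter therefore could not turn their direction, and those runs are no support for it. Some genes that were not called and lay near 0 changed sign: with length and GC trends removed HSP90AB1 had -0.02 in place of 0.02, NCAPD2 -0.01 in place of 0.03 and EPCAM -0.03 in place of 0.00. Deviations of same-numbered libraries of the groups correlated at 0.0584, 0.0228 and 0.0334. Those of other-numbered libraries correlated at -0.0413 to 0.00872, all lower. Whether the replicate numbers mark pairs is not given in the labels and was not tested. With the replicate block 18 genes were called (8 higher, 10 lower, 2 mitotic falls), and with the block and trends removed 48 (13 and 35). Depth limits SNORD50A, RNA5SP109 and SNORA48, which rest on at most 17 reads per library.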
